A study of Mus musculus with 6 samples.

Results

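Hhipl1 and 8 genes related to it or to Hedgehog signaling were examined in RNA sequencing data from P301S Tau mice, a model of tauopathy, with prefrontal cortex (PFC) as the tissue. These 9 genes are the Hhip family (Hhip, Hhipl1 and Hhipl2), the ligand gene Shh, the receptor genes Ptch1 and Smo, and the transcription factor genes Gli1, Gli2 and Gli3. They are 9 of 54429 gene names with counts, and all 9 were among the 20409 genes with enough counts to be tested. Hhipl1 was chosen by its lower level in P301S Tau mice than in WT mice in these same libraries, so its values below are a description with no test. The other 8 genes were taken by name, as relatives of Hhipl1 or members of the pathway, with earlier results of these data known. They were tested in a fit across all genes. The question is whether they share the change of Hhipl1.

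The data come from 6 libraries of whole PFC lysate from mice that were 6 months old, with 2 libraries in each of 3 groups. WT mice were C57BL/6 x C3H animals given vehicle. P301S Tau mice (PS19) carry a human tau transgene with the P301S mutation, which the mouse prion protein promoter drives, and were given vehicle. The remaining group was P301S Tau mice given UNC0642, an inhibitor of the histone methyltransferases EHMT1 and EHMT2, by daily intraperitoneal injection over a short course. No group of WT mice given UNC0642 was analysed here, so every UNC0642 value is for transgenic mice. Each library is a biological duplicate by the study's methods, and libraries held 17005664 to 28972176 counts.

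In Hedgehog signaling, a secreted ligand such as SHH binds the receptor PTCH1, which otherwise keeps the membrane protein SMO inactive. Active SMO acts at the primary cilium to turn the GLI transcription factors into activators. PTCH1, GLI1 and HHIP are themselves products of target genes, so their transcripts serve as common readouts of the pathway, and HHIP binds Hedgehog ligands and limits their reach. Hhipl1 and Hhipl2 encode proteins named for their similarity to HHIP. In the adult cortex, neurons make Shh, and astrocytes are a main site of its signaling.

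The promoters of Hhipl1 and Hhip are shown because these relatives had different patterns across the groups. Each sequence is the 250 bases before the RefSeq transcript start on GRCm38.p6, 5′ to 3′ on the gene's strand, with CpG dinucleotides in capitals. Hhipl1 lies on the plus strand (window chr12:108306020-108306269) and Hhip on the minus strand (window chr8:80058009-80058258).
Hhipl1: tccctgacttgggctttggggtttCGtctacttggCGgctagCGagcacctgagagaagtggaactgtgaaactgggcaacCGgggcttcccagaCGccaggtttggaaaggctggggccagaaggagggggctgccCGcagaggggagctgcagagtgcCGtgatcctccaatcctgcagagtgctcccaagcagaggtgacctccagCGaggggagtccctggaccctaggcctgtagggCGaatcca
Hhip: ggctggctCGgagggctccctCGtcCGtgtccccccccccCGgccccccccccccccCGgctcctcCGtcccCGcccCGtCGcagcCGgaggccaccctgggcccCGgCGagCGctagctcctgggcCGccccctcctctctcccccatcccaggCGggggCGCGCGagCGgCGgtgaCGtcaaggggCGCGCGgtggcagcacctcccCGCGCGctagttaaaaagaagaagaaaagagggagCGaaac
The Hhipl1 window holds 9 CpG dinucleotides and the Hhip window 28, against a median of 6 over 32851 promoter windows of the same length. RefSeq windows were matched for 7 of the 9 genes, as 8 windows. The GLI binding sequence GACCACCCA, read on either strand, was in 0 of these 8 windows and in 0.225% of all windows. That says only that these letters are not in these windows.

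Some libraries stood apart before any of the 9 genes was considered. By the X-linked Xist and the Y-linked Ddx3y, the library labelled WT replicate 1 and both UNC0642 libraries showed a male pattern, and the other 3 libraries a female pattern. UNC0642 treatment of P301S Tau mice and sex therefore cannot be told apart. Prnp, whose promoter drives the transgene, was at 1652 CPM (counts scaled to a library of 1000000) in the library labelled WT replicate 1 and at 873 CPM in WT replicate 2, against 1470 to 1694 CPM in the 4 Tau libraries. Mapt, the mouse tau gene, was at 576 CPM in the library labelled WT replicate 1 and 449 CPM in WT replicate 2. It was at 570.5 to 614 CPM in the 4 Tau libraries. On both measures the library labelled WT replicate 1 goes against its label. Values of the 9 genes against WT are therefore also given without it. Tau replicate 2 held the most signal from oligodendrocyte markers, whose 6 genes summed to 5114 CPM there and to 1327 to 2709 CPM elsewhere. It also stood apart in 6 striatal neuron markers, at 166 CPM against 63.6 to 78.2 CPM. Slc17a7, the gene of the vesicular glutamate transporter of cortical excitatory neurons, was at 846 to 1016 CPM in all 6 libraries. That goes with cortical tissue but does not tell PFC from other cortex.

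Hhipl1 was lower in P301S Tau mice than in the WT-labelled libraries and intermediate after UNC0642, and the 8 genes set beside it did not pass the test. It was at 30.7 and 28.5 CPM in the WT-labelled libraries, 13.1 and 12.02 CPM in P301S Tau mice, and 20.4 and 19.7 CPM in UNC0642-treated P301S Tau mice. The 3 groups, as labelled, did not overlap, and the treated mice lay between the others. The highest value, 30.7 CPM, belongs to the library labelled WT replicate 1, whose Prnp and Mapt levels go against its label. Without that library, the WT level rests on a single library. None of the other 8 genes passed the test in any of the 3 comparisons, although for Tau against WT the intervals of Shh, Gli1 and Gli2 are wide enough to include the change of Hhipl1. The plot of CPM by library shows the 9 genes side by side.

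**Figure D1:**
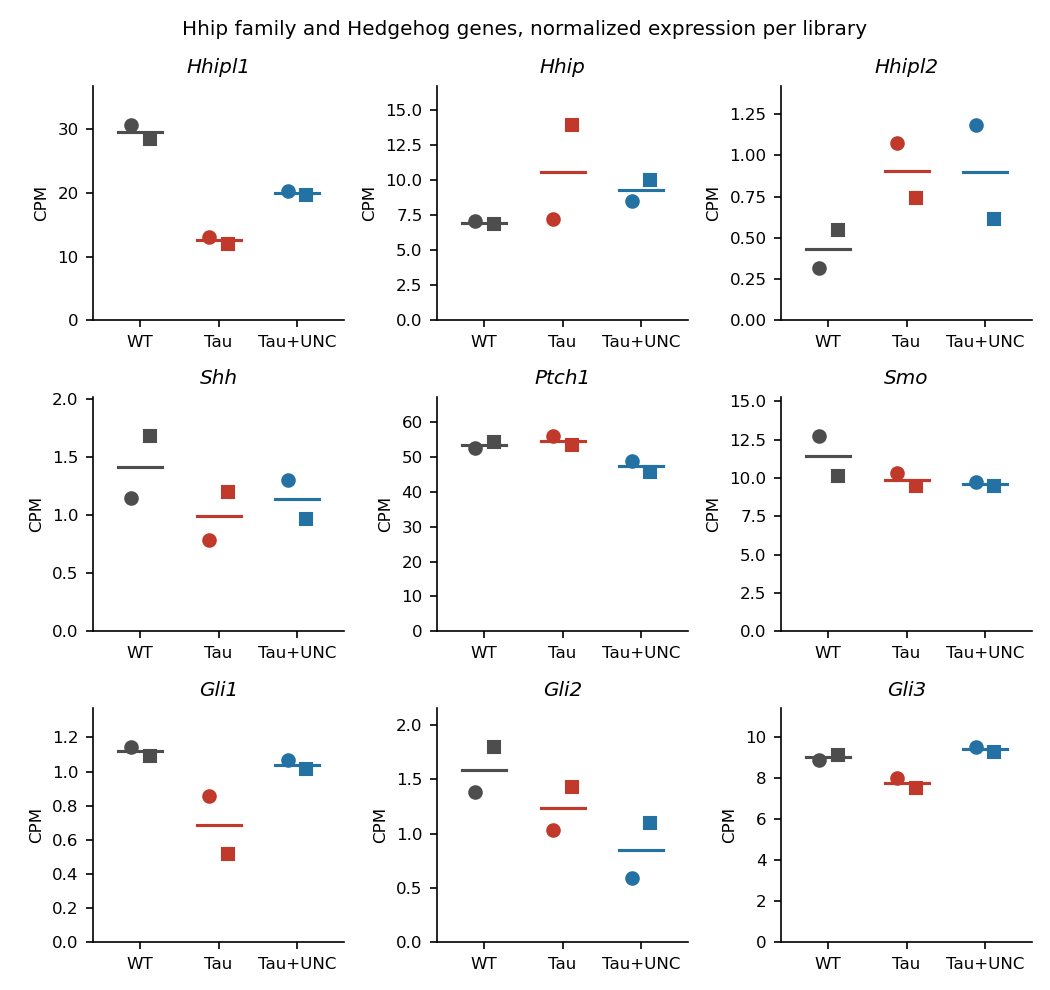
Normalized expression in CPM (vertical axes, each from 0) of the 9 genes in the 2 libraries of each group, with circles for replicate 1, squares for replicate 2 and lines for group means. Hhipl1 shows 3 separate levels, with means of 29.6, 12.6 and 20.02 CPM, and in Hhip the Tau replicate 2 library lies alone at 13.9 CPM.

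Hhipl1 (chr12:108306270-108330869, plus strand, mm10 with GENCODE M21 gene models) had 778 and 729 counts in the WT-labelled libraries, 367 and 210 in Tau, and 344 and 446 after UNC0642. Its group means were 29.6 ± 1.55 CPM in WT, 12.6 ± 0.777 CPM in Tau and 20.0 ± 0.490 CPM in UNC0642-treated mice (SD, n = 2 libraries each). The fitted log2 fold change was −1.23 (SE 0.12, 95% interval −1.49 to −0.97) between Tau and WT, a level 0.426 times that of WT. Between UNC0642-treated and untreated Tau mice it was 0.67 (SE 0.12, interval 0.40 to 0.93), and between UNC0642-treated Tau and WT mice −0.56 (SE 0.11, interval −0.82 to −0.31). These comparisons share libraries: a low value in the Tau libraries, on which the gene was chosen, enters the first and the second alike. The Tau to WT value was −1.18 without the library labelled WT replicate 1, when the 3 libraries compared all have the female pattern, and −1.29 without WT replicate 2. Against WT, UNC0642-treated mice were at −0.51 and −0.62 without these libraries in turn. A fit with a term for sex-linked expression gave −1.17 for Tau against WT and 0.56 for UNC0642-treated against untreated Tau. That term rests only on the difference between the WT-labelled libraries, as each other group has a single sex pattern. This fit therefore does not separate sex from treatment. An antisense transcript within the gene, 4930478K11Rik, had 0 to 9 counts per library. The strand setting of the counting is not given in the sources used here, so its part in the Hhipl1 counts was not settled. In whole tissue, fewer cells that express a gene and less RNA per cell cannot be told apart.

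Hhip, the Hedgehog-binding protein gene that gave the family its name, did not fall with Hhipl1. It was at 7.06 and 6.87 CPM in the WT-labelled libraries, 7.22 and 13.9 CPM in Tau, and 8.53 and 10.01 CPM after UNC0642. The higher Tau value belongs to replicate 2 alone, and replicate 1 lay just above both WT libraries. The log2 fold change of Tau against WT was 0.58 (SE 0.27, interval −0.01 to 1.17; adjusted p = 0.409, edgeR quasi-likelihood test with Benjamini-Hochberg adjustment over all genes tested). Without Tau replicate 2 it was 0.05, and without Tau replicate 1 it was 1.00 and passed the calling rule (unadjusted p = 0.000654, edgeR). The oligodendrocyte and striatal markers that are high in Tau replicate 2 move with this value, and their part in it was not tested. Treated against untreated Tau mice differed by −0.17 in log2 (SE 0.27; adjusted p = 0.903, edgeR), with −0.58 without Tau replicate 1 and 0.36 without Tau replicate 2. Its direction under UNC0642 thus depended on which Tau library was kept. Against WT, UNC0642-treated mice were at 0.42 (SE 0.27; adjusted p = 0.571, edgeR), and Hhip was called there without Tau replicate 1 (0.41, SE 0.17) or Tau replicate 2 (0.42, SE 0.18).

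Hhipl2, the other relative, was near the detection limit. It was at 0.315 and 0.547 CPM in the WT-labelled libraries, 1.07 and 0.744 CPM in Tau, and 1.18 and 0.618 CPM after UNC0642, from 8 to 30 counts per library. A floor of 3 counts corresponds to 0.104 to 0.176 CPM in these libraries. Both Tau libraries lay above both WT libraries, the opposite order to Hhipl1, but the log2 fold change of 1.09 (SE 0.57, interval −0.17 to 2.34) did not pass the test (adjusted p = 0.457, edgeR). The treated libraries spanned the untreated ones (−0.06, SE 0.54; adjusted p = 0.987, edgeR).

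Shh, the ligand gene, had 21 to 43 counts per library. Its levels were 1.14 and 1.68 CPM in the WT-labelled libraries, 0.787 and 1.202 CPM in Tau, and 1.303 and 0.970 CPM after UNC0642, and the 3 groups overlapped. The log2 fold change was −0.53 (SE 0.43, interval −1.49 to 0.43; adjusted p = 0.648, edgeR) for Tau against WT and 0.21 (SE 0.45, interval −0.79 to 1.21; adjusted p = 0.931, edgeR) for treated against untreated Tau. The first interval includes both 0 and a fall as large as that of Hhipl1. On the opposite strand, 9530036O11Rik (11 to 32 counts) and Gm26894 (19 to 29 counts) overlap Shh. The libraries were stranded, but the strand setting of the counting is not given in the sources used here, so the source of the Shh counts is uncertain.

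Ptch1, which encodes the ligand receptor and is itself a Hedgehog target, was the most precisely measured of the 8 genes, with 822 to 1563 counts per library. It was at 52.4 and 54.2 CPM in the WT-labelled libraries, 55.9 and 53.2 CPM in Tau, and 48.7 and 45.7 CPM after UNC0642. WT and Tau overlapped, and the log2 fold change was 0.03 (SE 0.09, interval −0.16 to 0.23; adjusted p = 0.908, edgeR). Both treated libraries lay below all 4 others. The difference from untreated Tau was −0.21 (SE 0.09, interval −0.41 to −0.01), with an unadjusted p of 0.0406 and an adjusted p of 0.547 in the edgeR test, and at 0.864 times the untreated level it was smaller than the 1.2-fold change of the calling rule. This order is the reverse of that of Hhipl1, which was higher in treated than in untreated Tau mice.

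Smo, which encodes the signal transducer that PTCH1 holds in check, was at 12.7 and 10.2 CPM in the WT-labelled libraries, 10.3 and 9.45 CPM in Tau, and 9.71 and 9.48 CPM after UNC0642. The WT and Tau ranges overlapped, with a log2 fold change of −0.21 (SE 0.16, interval −0.57 to 0.15; adjusted p = 0.635, edgeR). Treated and untreated Tau mice differed by −0.05 (SE 0.17, interval −0.42 to 0.32; adjusted p = 0.961, edgeR). The difference of UNC0642-treated Tau from WT was −0.25 (SE 0.16; adjusted p = 0.570, edgeR). It was −0.41 and passed the calling rule without WT replicate 2, when the libraries compared all have the male pattern. The only WT library left there is the one labelled WT replicate 1, which goes against its label. Without that library instead, the difference was −0.08.

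Among the GLI factors, Gli1 followed the order of Hhipl1 most closely, at a far lower level. Gli1, an activator and a standard target of the pathway, was at 1.14 and 1.09 CPM in the WT-labelled libraries, 0.858 and 0.515 CPM in Tau, and 1.07 and 1.01 CPM after UNC0642. Both Tau libraries lay below the other 4. The log2 fold changes were −0.66 (SE 0.45, interval −1.66 to 0.33; adjusted p = 0.573, edgeR) for Tau against WT and 0.56 (SE 0.46, interval −0.46 to 1.58; adjusted p = 0.762, edgeR) for treated against untreated Tau. They rest on 9 to 29 counts per library and did not pass the test. Without Tau replicate 1 they were −1.11 and 1.00, and without Tau replicate 2 −0.38 and 0.27. At its end Gli1 overlaps Arhgap9 on the opposite strand, which had 8 to 39 counts.

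Gli2, a main activator of the pathway, was at 1.38 and 1.80 CPM in the WT-labelled libraries, 1.04 and 1.43 CPM in Tau, and 0.592 and 1.10 CPM after UNC0642. Neighbouring groups overlapped, and the treated libraries were the lowest on average. The log2 fold change was −0.38 (SE 0.42; adjusted p = 0.745, edgeR) for Tau against WT, −0.49 (SE 0.46; adjusted p = 0.797) for treated against untreated Tau, and −0.87 (SE 0.44, interval −1.85 to 0.11; adjusted p = 0.462) for treated Tau against WT. The last value was −1.42 and passed the calling rule without UNC0642 replicate 2, and was −0.52 without UNC0642 replicate 1.

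Gli3, which acts mostly as a repressor when the pathway is off, was at 8.91 and 9.14 CPM in the WT-labelled libraries, 8.04 and 7.56 CPM in Tau, and 9.53 and 9.31 CPM after UNC0642. The order of the groups was narrow but without overlap, with Tau lowest. The log2 fold changes of −0.21 (SE 0.16, interval −0.55 to 0.14; adjusted p = 0.616, edgeR) for Tau against WT and 0.27 (SE 0.16, interval −0.08 to 0.62; adjusted p = 0.650, edgeR) for treated against untreated Tau did not pass the test. Both intervals end short of the Hhipl1 values of −1.23 and 0.67.

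**Figure D2:**
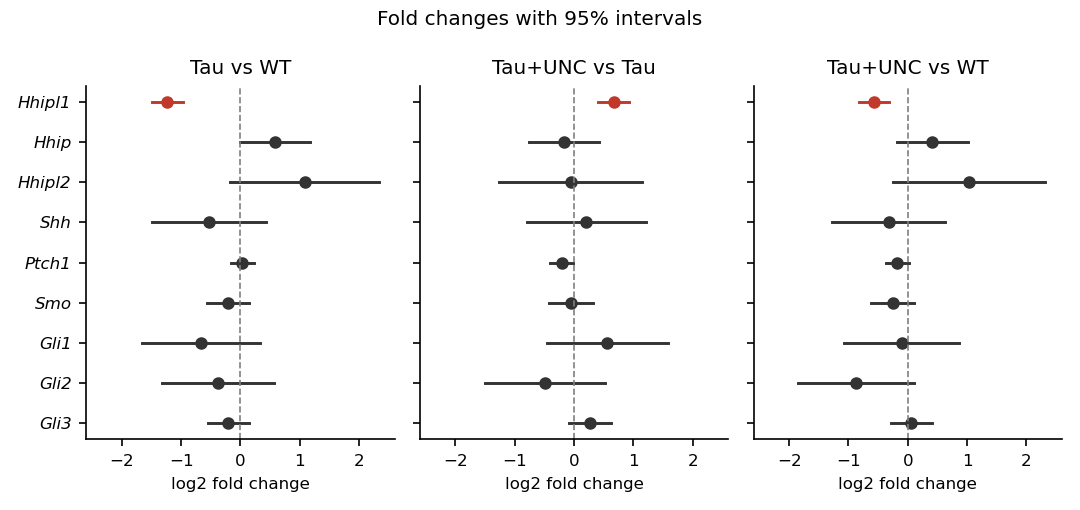
Log2 fold changes (horizontal axes) with 95% intervals for the 9 genes in the 3 comparisons, from the edgeR fit. Hhipl1 (red, chosen by its Tau to WT change) is at −1.23, 0.67 and −0.56, and the intervals of the other 8 genes include 0 except that of Ptch1 in treated against untreated Tau, which ends at −0.01.

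The calling rule took the thresholds of the study, an unadjusted p under 0.05 with a change of 1.2-fold or more. For Tau against WT, 0 of the 8 tested genes were called, where 9.81% of all genes tested were (6.1% lower and 3.72% higher in Tau), and 0 of the 8 had an unadjusted p under 0.05. For treated against untreated Tau, 0 of 8 were called against 7.69% of all genes (3.95% lower and 3.73% higher), with 1 gene, Ptch1, at an unadjusted p under 0.05. For treated Tau against WT the count was 0 of 8 against 9.47% (5.69% lower and 3.77% higher). With 8 genes, counts of 0 are close to these background shares. DESeq2's Wald test called 1 of the 8, Hhip, in Tau against WT. In each comparison 3 of the 8 values were above 0 and 5 below. Their median log2 fold changes were −0.21, −0.05 and −0.14, against −0.0001, −0.0023 and −0.012 over all genes tested.

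Without the library labelled WT replicate 1, 0 of the 8 genes were called in Tau against WT or in treated Tau against WT. The Tau to WT values were then 0.59 for Hhip, 0.74 for Hhipl2, −0.78 for Shh, 0.01 for Ptch1, −0.04 for Smo, −0.63 for Gli1, −0.56 for Gli2 and −0.23 for Gli3. Those of Hhipl2 (from 1.09 with all libraries), Smo and Ptch1 moved nearer to 0 and those of Shh and Gli2 farther from it. The treated Tau to WT values were 0.44 for Hhip, 0.69 for Hhipl2, −0.57 for Shh, −0.20 for Ptch1, −0.08 for Smo, −0.07 for Gli1, −1.05 for Gli2 and 0.04 for Gli3. With any 1 of the 6 libraries left out, the Tau to WT value ranged from 0.74 to 1.53 for Hhipl2 and from −0.84 to −0.23 for Shh.

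Set beside the Tau to WT interval of Hhipl1, −1.49 to −0.97, the intervals of Hhip, Hhipl2, Ptch1, Smo and Gli3 lay wholly higher. Those of Shh, Gli1 and Gli2, each with at most 46 counts in a library, overlapped it. For treated against untreated Tau, the intervals of Ptch1 and Smo lay wholly below the Hhipl1 interval of 0.40 to 0.93, and those of the other 6 genes overlapped it. Of the latter, the intervals of Hhipl2, Shh and Gli1 hold the Hhipl1 value of 0.67 itself, and those of Hhip, Gli2 and Gli3 end below it. Hhipl1 was chosen by its Tau to WT change, and both of its intervals use the same Tau libraries. These comparisons of intervals are therefore a description with no test.

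Per kilobase of exon, Hhipl1 had the highest level of the 9 genes in the WT-labelled libraries, at 5.48 and 5.08 CPM per kb, above Ptch1 at 3.69 and 3.82 CPM per kb. In Tau mice it ranked below Ptch1, at 2.34 and 2.15 against 3.94 and 3.75 CPM per kb. After UNC0642 the pair was close, at 3.64 and 3.51 CPM per kb for Hhipl1 and 3.43 and 3.22 CPM per kb for Ptch1. Smo followed at 1.68 to 2.27 CPM per kb over the 6 libraries. Gli3 (0.788 to 0.994 CPM per kb) and Hhip (0.757 to 1.53 CPM per kb) overlapped and could not be ordered. Shh (0.276 to 0.590), Hhipl2 (0.114 to 0.428), Gli2 (0.0862 to 0.262) and Gli1 (0.103 to 0.229 CPM per kb) were the lowest. The range of Hhipl2 overlapped those of Shh, Gli2 and Gli1. Those of Gli2 and Gli1 overlapped each other, and both lay below that of Shh.

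The rest of the pathway was read from a list of 48 names, of which 47 were in the files and 43 had enough counts. The list was made with earlier results of these data known. Evc2 and Kcnj10 on it are also in the study's own lists of genes changed in Tau mice and reversed by UNC0642. For Tau against WT, 3 of the 43 rose (Ccnd2, Bcl2 and Kcnj10), 1 fell (Evc2) and 39 did not pass the calling rule. These 4 calls are close to the background share of 9.81% of all genes, and the median log2 fold change was −0.01. For treated against untreated Tau, 2 rose (Evc and Evc2) and 3 fell (Prkaca, Kcnj10 and Sparc), against 7.69% of all genes called, with a median of −0.01. For treated Tau against WT, 2 rose (Ccnd2 and Bcl2) and 5 fell (among them Scube1, Iqce, Ulk3 and Lrig1), against 9.47% of all genes called, with a median of 0.01, and all 5 that fell were not called without UNC0642 replicate 2. In the fit used for these counts, only Ccnd2, for Tau against WT, had an adjusted p under 0.05. Under some of the alternatives run, Evc2, Kcnj10 and Scube1 had one too, so Ccnd2 is not alone in this. The counts by role that follow are parts of this list and stand against the same shares.

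Of 7 tested GLI targets beside Ptch1, Gli1 and Hhip, 2 rose in Tau mice and 0 fell. Of all genes tested, 3.72% were called higher and 6.1% lower. With 7 genes, 2 calls are few to set against these shares. Ccnd2, the gene of the cell cycle protein cyclin D2, was at 67.1 and 79.7 CPM in the WT-labelled libraries, 121 and 110 CPM in Tau, and 113 and 105 CPM after UNC0642. All 4 Tau libraries lay above both WT libraries, and the log2 fold change was 0.65 (SE 0.10; adjusted p = 0.0467, edgeR) for Tau against WT and −0.09 (adjusted p = 0.855, edgeR) for treated against untreated Tau. Its Tau to WT value stayed between 0.53 and 0.78 when any 1 library was left out, while its adjusted p ranged from 1.45e-08 to 0.178 over all alternatives run. Bcl2, which encodes an inhibitor of apoptosis, was at 28.4 and 31.0 CPM in WT, 37.5 and 37.5 CPM in Tau, and 37.3 and 37.4 CPM after UNC0642, a log2 fold change of 0.34 (adjusted p = 0.268, edgeR). Both were higher in Tau mice, where Hhipl1 was lower. The targets Ccnd1 and Mycn were at 0.10 and 0.05 in log2 and were not called.

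Upstream of SMO, the 5 tested genes of ligand maturation and release were all below 0 in Tau against WT, from −0.34 to −0.08, and 0 of 5 were called. Of 4 receptor and co-receptor genes, 3 were below 0 and 0 were called, among them Gas1, a co-receptor gene, at −0.52 (adjusted p = 0.429, edgeR) and Boc, another, at −0.28 (adjusted p = 0.434, edgeR). Scube1, which encodes a secreted protein of ligand release, was at 77.2 and 88.2 CPM in WT, 81.2 and 49.5 CPM in Tau, and 59.6 and 49.3 CPM after UNC0642, and its treated Tau to WT value was −0.61 (adjusted p = 0.262, edgeR). The other ligand genes, Ihh (4 to 6 counts) and Dhh (0 to 8 counts per library), and the co-receptor gene Lrp2 (2 to 6 counts) were too low to be tested.

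Among 7 genes of SMO's partners at the cilium, Evc2 was called in Tau against WT, and Evc and Evc2 in treated against untreated Tau. They encode a complex that passes the SMO signal on, and lie head to head on chromosome 5. Evc2 was at 10.6 and 20.2 CPM in the WT-labelled libraries, 10.4 and 5.90 CPM in Tau, and 19.4 and 22.1 CPM after UNC0642. The WT libraries spread widely, and its log2 fold change was −0.90 (SE 0.30; adjusted p = 0.312, edgeR) for Tau against WT. It ranged from −1.39 to −0.36 with any 1 library left out, and was not called without WT replicate 2 or without Tau replicate 2. For treated against untreated Tau it was 1.33 (adjusted p = 0.327, edgeR) and was called with any 1 library left out. Evc was at 6.94 and 7.03 CPM in WT, 5.47 and 5.67 CPM in Tau, and 7.401 and 7.98 CPM after UNC0642, and was called for treated against untreated Tau (0.47; adjusted p = 0.499, edgeR; not called without Tau replicate 1, Tau replicate 2 or UNC0642 replicate 2) but not for Tau against WT (−0.33; adjusted p = 0.480, edgeR). Like Hhipl1, both genes were lowest on average in Tau, but their treated mice lay above WT on average, not between the other groups. Iqce, which encodes another partner of that complex, was called lower in treated Tau than in WT mice (−0.35; adjusted p = 0.312, edgeR).

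The 10 regulators of GLI proteins and 7 genes of cilium transport gave 0 calls in Tau against WT, with medians of 0.05 and −0.01. Prkaca, the protein kinase A subunit that restrains GLI proteins, fell to 108 and 109 CPM after UNC0642 from 143 and 126 CPM in untreated Tau mice (−0.31; adjusted p = 0.418, edgeR), and was not called without Tau replicate 1. Of 3 astrocyte genes known to depend on Hedgehog signaling, Kcnj10, a potassium channel gene, rose in Tau mice and fell after treatment. It was at 77.7 and 82.4 CPM in WT, 93.5 and 104 CPM in Tau, and 73.1 and 74.0 CPM after UNC0642. Its log2 fold changes were 0.30 (adjusted p = 0.259, edgeR), which was not called without WT replicate 1 or Tau replicate 2, and −0.42 (adjusted p = 0.255, edgeR), which was called with any 1 library left out. Sparc, a matrix protein gene, was at 92.4 and 99.9 CPM in Tau and 77.6 and 76.6 CPM after UNC0642 (−0.32; adjusted p = 0.479, edgeR), and was not called without Tau replicate 2 or either UNC0642 library. The summed level of 8 astrocyte markers was 4169 to 4790 CPM over the 6 libraries.

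**Figure D3:**
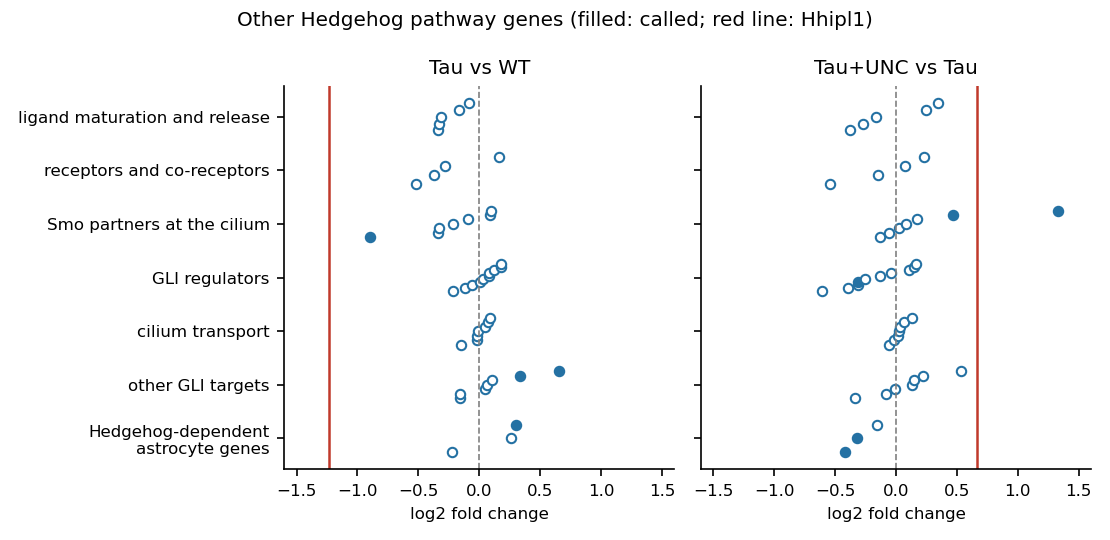
Log2 fold changes (horizontal axes) of the 43 other Hedgehog pathway genes by role, for Tau against WT and for UNC0642-treated against untreated Tau, with called genes filled and Hhipl1 as a red line. No listed gene reaches the Hhipl1 value of −1.23 in the left panel, and Evc2 alone exceeds its 0.67 in the right panel, at 1.33.

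Genes with the pattern most like that of Hhipl1 were sought among 20408 genes, by the root mean square difference of log2 CPM, centred on its mean, over the 6 libraries. The nearest was Hspg2, which encodes perlecan, a proteoglycan of basement membranes, at a difference of 0.0453 and a Pearson r of 0.997. It was at 8.08 and 7.42 CPM in the WT-labelled libraries, 3.36 and 2.92 CPM in Tau, and 5.33 and 4.76 CPM after UNC0642. Its log2 fold changes were −1.29 and 0.67, beside −1.23 and 0.67 for Hhipl1. The next were 2310043P16Rik at 0.0945, Piezo2, the gene of a mechanically gated channel, at 0.0977, Gm43571 at 0.0986 and Gm11400 at 0.1001. These 4 were low, from 6 to 78 counts per library. All 5 genes, Hspg2 among them, were chosen for their likeness, so their close values follow from that choice and carry no test. By Pearson r instead, 2 of the 5 nearest, Hspg2 and 2310043P16Rik, were the same. Of the 8 other Hedgehog genes, Gli1 ranked 338 (difference 0.286), Gli3 2173, Shh 2203 and Smo 2570. Ptch1, Gli2, Hhip and Hhipl2 ranked 8843, 15152, 18789 and 19847, so Hhip and Hhipl2 were among the least like Hhipl1 by this measure. The rank of Hhip includes its high value in Tau replicate 2 alone, and that of Hhipl2 rests on 8 to 30 counts per library.

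Markers of vessel and meningeal cells also differed between the groups. In Tau against WT, 6.1% of all genes tested were called lower and 3.72% higher, and the marker counts stand against these shares. The marker lists were also chosen with earlier results of these data known. Some markers, such as Cldn5, Fmod, Mbp and Drd2, are in the study's own lists of reversed genes, so the counts are a description. Of 8 endothelial markers, 4 fell in Tau against WT, 0 rose and all 8 were below 0, with a median log2 fold change of −0.41. Their summed level was 200 and 191 CPM in the WT-labelled libraries, 139 and 149 CPM in Tau, and 143 and 188 CPM after UNC0642. Cldn5, the tight junction gene that defines brain endothelium, was at 26.1 and 18.5 CPM in WT, 10.5 and 10.3 CPM in Tau, and 13.9 and 16.0 CPM after UNC0642, with the same order as Hhipl1. Of 11 tested meningeal fibroblast markers, 4 fell and 0 rose (median −0.49), and their sums were 359 and 555 CPM in WT, 412 and 306 CPM in Tau, and 432 and 391 CPM after UNC0642, so these sums overlapped. Dcn, a defining fibroblast gene, was at 6.98 to 9.14 CPM throughout. Of 9 mural and smooth muscle markers, 1 rose and 2 fell (median −0.08), with sums of 160 to 195 CPM. No marker of these 3 lists was at 0 in any library. Of the other lists, oligodendrocyte markers gave 3 calls of 6 and striatal markers 6 of 6, all higher in Tau, with Tau replicate 2 above all other libraries in both sums. Astrocyte (8 genes), oligodendrocyte progenitor (5), microglia (6), layer 5 neuron (5) and interneuron (5) markers gave 1 rise each, too few to set apart from the background share, and excitatory neuron markers (5) gave 0 calls. Of 6 choroid plexus and ependyma markers, 3 had enough counts and 0 of these were called, while Ttr, Folr1 and Ccdc153 were at 0 in at least 1 library. The part of these cell types in the level of Hhipl1 was not tested.

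**Figure D4:**
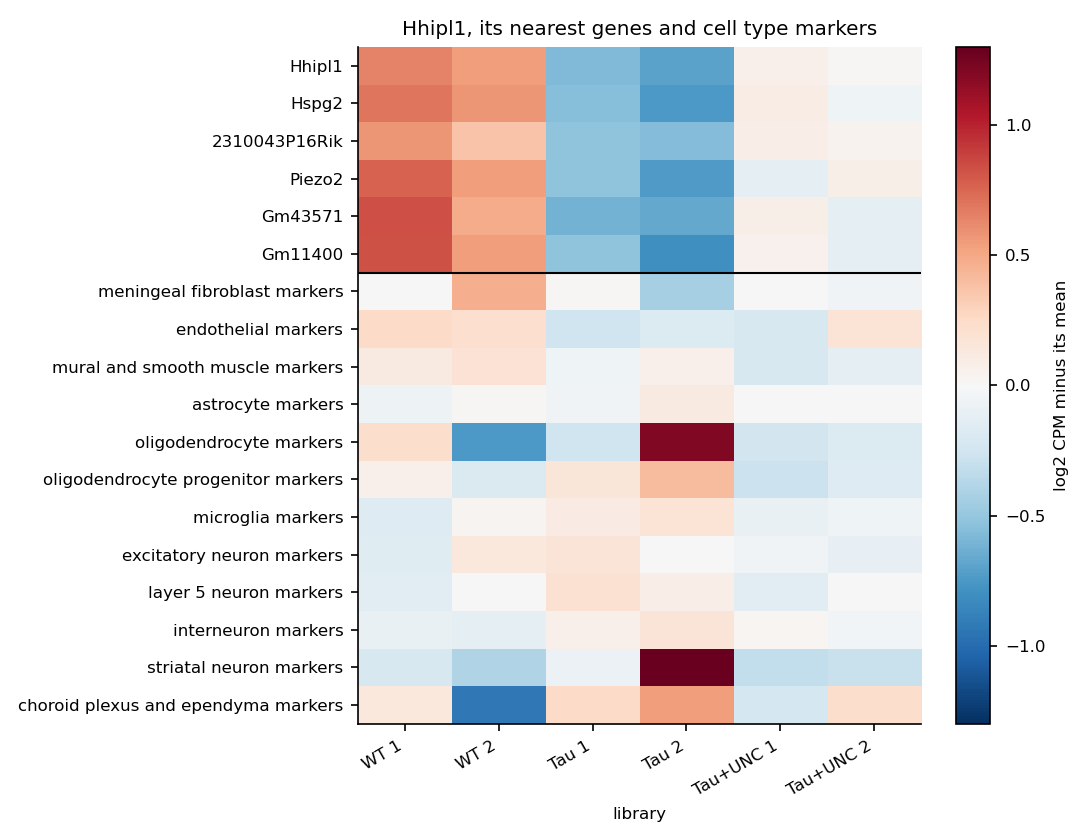
Log2 CPM minus its mean over the 6 libraries (color) for Hhipl1 and its 5 nearest genes, above the line, and for the mean of each cell type marker list, below it. The 6 genes share high values in WT, low values in Tau and middle values after UNC0642, and the striatal and oligodendrocyte lists stand out in Tau replicate 2.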

How the data were processed

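RNA was extracted from the PFC of biological duplicates in each group, and stranded total RNA libraries depleted of ribosomal RNA were sequenced. As the study's methods state, the authors trimmed reads with Cutadapt, aligned them with TopHat2, by their account to RefSeq mRNAs, and counted reads per gene with featureCounts, and the submitters' processing notes name mm10. The deposited values are raw counts per gene, without normalization. Total counts ranged from 17005664 to 28972176 per library, and the floor of 3 counts covers counting error only. Dates stood in place of 26 gene names in 2 libraries (WT replicate 2 and Tau replicate 2). They were joined by position, and none of them is discussed here.

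The analysis used edgeR 4.0.16 with limma 3.58.1 (R 4.3.3). Low genes were removed with filterByExpr (minimum count 10, minimum total 15) and library sizes scaled by TMM (factors 0.966 to 1.04). Group means were fitted by quasi-likelihood across the 6 libraries together, with 3 residual degrees of freedom. Benjamini-Hochberg adjustment covered 20409 genes. Log2 CPM used a prior count of 2. Coordinates and exon lengths come from GENCODE M21, where 53669 names belonged to 1 gene. The code was tested on simulated data. Tables and figures were made with Python 3.11.15, pandas 2.3.3 and matplotlib 3.10.9.

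Genes named were the 9 members, called genes of a Hedgehog list, marker lists and the 5 genes nearest to Hhipl1. The values of 1 listed gene are not reported here. Members and lists were chosen with earlier results of these data known. Alternatives were DESeq2 1.42.0 (size factors, Wald test), limma-voom, library size scaling, other filters, fitting only the groups compared, a replicate block, a term for sex-linked expression and each library left out. Same-numbered libraries did not deviate together (r −0.034 to −0.0033).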

Additional observations from a re-analysis of the deposited data

How the results depend on the processing

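The Tau to WT log2 fold change of Hhipl1 lay between −1.301 and −1.17 under all alternatives run, the treated to untreated Tau value between 0.56 and 0.73, and the treated Tau to WT value between −0.62 and −0.51. Among these alternatives, the term for sex-linked expression rests on the WT-labelled libraries alone and does not separate sex from treatment. With the replicate block, the Tau to WT value was −1.23 for Hhipl1 and 0.54 for Hhip, the calls among the other 8 genes stayed at 0, and all genes called numbered 1792 in Tau against WT. For Tau against WT, DESeq2's Wald test called 1322 genes in place of 2003. In the edgeR fit, 32 genes had an adjusted p under 0.05 in that comparison. Among the 8 genes tested, 1 (Hhip) was called with no filter and 1 (Hhip) by DESeq2's Wald test, and 0 to 1 with a library left out (Hhip, without Tau replicate 1, at 1.00). For treated against untreated Tau, leaving a library out gave 0 to 1 calls (Hhip, without Tau replicate 1, at −0.58). For treated Tau against WT, 2 (Hhip and Gli2) were called with no filter, 1 (Hhip) with only the groups compared, 1 (Smo, at −0.41) with the term for sex-linked expression and 0 to 1 with a library left out: Hhip at 0.41 and 0.42 without Tau replicate 1 or 2, Smo at −0.41 without WT replicate 2, and Gli2 at −1.42 without UNC0642 replicate 2.

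Of the 43 other pathway genes, 2 to 7 were called in Tau against WT with a library left out (7 without Tau replicate 1 and 2 without Tau replicate 2), and 2 to 7 in treated Tau against WT (2 without UNC0642 replicate 2), where DESeq2's Wald test called 4. The counts with a library left out come from fits that leave a single library in a group. They show only that calls moved, not how they stand against all genes. By adjusted p under 0.05 in the edgeR fit, 1, 0 and 0 of the 43 genes were called in the 3 comparisons. Of all genes tested, 4 were called for treated against untreated Tau and 44 for treated Tau against WT. The direction turned for Ptch1 in Tau against WT (−0.035 with library size scaling, −0.0048 to 0.069 with a library left out), and in treated against untreated Tau for Hhip (−0.58 to 0.36), Hhipl2 (0.73 with the term for sex-linked expression, −0.57 to 0.36 with a library left out), Shh (−0.093 to 0.52) and Smo (−0.11 to 0.022). The cause was not tested. With 2 libraries per group and 8 to 46 counts, the values of Hhipl2, Shh, Gli1 and Gli2 are limited by depth.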
